A study of Mus musculus with 24 samples.

Results

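The nuclear-encoded genes of the mitochondrial respiratory chain were examined in neurons and glia of the mouse hippocampus at 24 h after kainic acid. Members were taken by symbol alone, namely the Nduf subunits of complex I, Sdha to Sdhd of complex II, the Uqcr subunits of complex III, the Cox4 to Cox8 subunits of complex IV and the Atp5 subunits of complex V (ATP synthase), with at least 10 counts in at least 3 of the 12 mRNAseq libraries. Of 53379 genes in the count table, 83 carried such a symbol and 81 passed the minimum. Complex I contributed 36 members, complex II 4, complex III 8, complex IV 16 and complex V 17. The others, Cox7a1 and Cox8b, reached at most 15 and 24 counts in any library. The symbols also brought in Cox6c2, annotated as a processed pseudogene of Cox6c, and Atp5s, coupling factor B. Complexes were assigned by symbol, so that Ndufa4 is counted in complex I although its product is a subunit of complex IV.

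Complexes I to IV pass electrons from NADH and succinate to oxygen and pump protons across the inner mitochondrial membrane, except for complex II, which does not pump. ATP synthase uses the resulting gradient to make ATP. Most subunits are encoded in the nucleus, while the mitochondrial genome encodes a small hydrophobic core of complexes I, III, IV and V, so that assembly needs products of both genomes. Neurons rely on oxidative phosphorylation to restore ion gradients after firing, and seizures place a heavy load on it.

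Adult male C57/BL6N mice received kainic acid (KA) or 0.9% NaCl as sham (SH) into the deep cortex above the right hippocampus, under medetomidine and ketamine anaesthesia with buprenorphine. KA mice without convulsive seizures were not used. Right hippocampi of 8 mice per treatment were combined into 3 pools, of 4 mice for replicate 1 and of 2 mice each for replicates 2 and 3, and nuclei were sorted by the neuronal protein NeuN into a positive fraction (neurons) and a negative fraction (glia). This gave 4 groups of 3 libraries, KA neurons, SH neurons, KA glia and SH glia, in which the 2 fractions of a pool came from the same mice. The model therefore describes pooled male hippocampus at 1 time point, in nuclei and not in whole cells. In pooled nuclei, fewer cells of a type and less RNA per cell cannot be told apart.

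The libraries held 7769400 to 40364768 counts. All 10 neuronal markers were higher in neurons, and all 10 astrocyte, all 8 oligodendrocyte and 9 of 10 microglial markers were higher in glia (edgeR quasi-likelihood test, FDR below 0.05), so that the labelled fractions held the cells they were named for. SH glia replicate 1 and KA glia replicate 2 were made from 0.05 ng of RNA with 15 PCR cycles, and the others from 1 ng with 10 cycles. The SH libraries of replicate 1 stood apart for the respiratory chain genes in both fractions. SH neurons replicate 1 held the highest value of the 6 neuronal libraries for 64 of 81 members, against 18.8% of all genes tested, and SH glia replicate 1 held the highest of the 6 glial libraries for 63 members, against 17.1% of all genes. The comparisons over all members are therefore given with and without replicate 1. The gene lists, the promoter motifs and most single members are given with all replicates only.

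Members were expressed in every group, and ATP synthase and complex I made up most of the signal. Levels are given as CPM, the count of a gene scaled to the effective size of its library after TMM normalisation, so that libraries of different depth can be compared. The 81 members summed to 6235, 4066 and 5143 CPM in SH neurons and to 3433, 3752 and 4358 CPM in KA neurons. They summed to 3845, 2366 and 3391 CPM in SH glia and to 1959, 1840 and 3281 CPM in KA glia. SH and KA libraries thus overlapped in both fractions, and replicate 1 was the highest SH library in each. Complex V summed to 1965 ± 232 CPM in SH neurons and 1500 ± 239 in KA neurons (SD, n = 3), and to 1172 ± 205 in SH glia and 876 ± 338 in KA glia. Complex IV, which is cytochrome c oxidase, summed to 599 ± 263 CPM in SH neurons and 338 ± 169 CPM in SH glia (SD, n = 3). Its sum was 895 CPM in SH neurons replicate 1 against 324 to 511 in the other 5 neuronal libraries, and 522 CPM in SH glia replicate 1 against 163 to 300 in the other 5 glial ones.

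**Figure D1:**
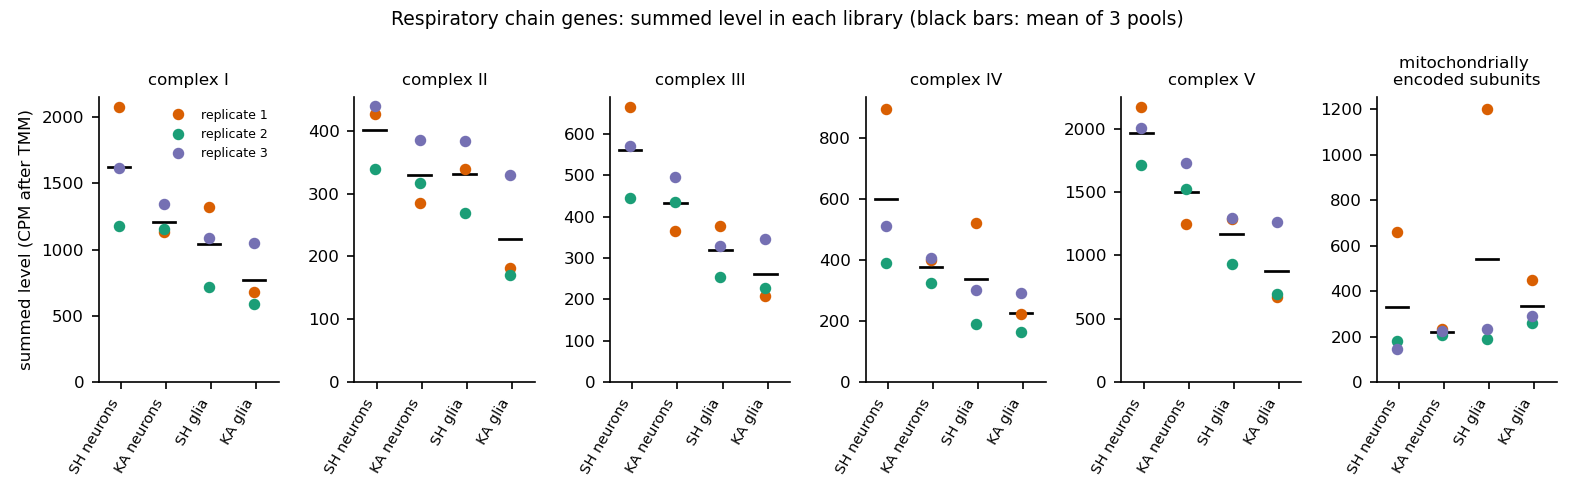
Summed level of the members of each complex, and of the mitochondrially encoded subunits, in CPM after TMM scaling (y axes start at 0) for the 4 groups; each point is 1 library, coloured by replicate number, and black bars are means of 3 pools. Replicate 1 of SH is the highest SH library for complexes I, III and IV in both fractions, and the mitochondrially encoded sum reaches 658 CPM in SH neurons replicate 1 and 1199 CPM in SH glia replicate 1.

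Per kilobase of exon, members of 1 complex differed widely although most subunits are present once in the assembled enzyme. The highest member was Atp5b, the catalytic beta subunit of the F1 head, at 109 CPM per kb over all libraries, and Atp5a1, its alpha partner, was at 79.5 CPM per kb. In complex I the levels ran from 3.91 CPM per kb for Ndufb4, an accessory subunit, to 56.5 for Ndufv1, the subunit that binds NADH and FMN. In complex II they ran from 7.42 for Sdhc, a membrane anchor, to 46.1 for Sdha, the flavoprotein. In complex III they ran from 14.5 for Uqcrb to 44.4 for Uqcrc1, a core protein of the matrix side. In complex IV they ran from 0.991 for Cox7b2 to 55.8 for Cox6a1. Complex V had its lowest level at 4.47 for Atp5g1, 1 of 3 genes that encode the same mature c-ring subunit. Lengths were the union of all annotated exons of a gene, 4912 bases for Atp5g1. A long annotation lowers the level per kilobase, so that these ranks depend on it. Short reads of some members may have been shared with copies elsewhere in the genome, since 40% of the 50-base exon words of Ndufs5, 33% of Cox6c2, 30.8% of Atp5g2, 28.1% of Uqcrb and 26% of Atp5g1 occur at other places in GRCm38.p6, so that their levels are less certain.

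Some promoter motifs were found at a higher share of members than of all genes, although most members lacked each of them. Nuclear respiratory factor 1 (NRF1), ETS factors such as GABPA and YY1 are known regulators of respiratory chain genes. RefSeq promoter windows (GRCm38.p6, 250 bases before to 50 after the start) were at hand for 63 of 81 members. The NRF1 motif, GCGCA and GCGC separated by 1 base of any kind and read on either strand, was present in 16 of the 63 (25.4%), against 4.78% of all promoter windows. The ETS motif CCGGAAG was present in 15 (23.8%, against 9.12%) and the YY1 motif AAGATGGC in 8 (12.7%, against 2.88%). Among protein-coding genes with a window the shares were 6.85%, 12.3% and 3.29%. A match describes letters and not a bound site. Shown here are windows with NRF1 matches from complexes I, II, IV and V and an ETS match in Sdhd, the member with the lowest KA vs SH p in glia, each 30 bases in the direction of the gene with the match in capitals.
Ndufa8, NRF1, chr2:36049349-36049378, minus strand: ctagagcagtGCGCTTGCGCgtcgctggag
Sdha, NRF1, chr13:74350276-74350305, minus strand: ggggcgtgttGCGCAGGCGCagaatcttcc
Sdhd, NRF1, chr9:50603909-50603938, minus strand: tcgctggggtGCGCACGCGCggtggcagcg
Sdhd, ETS, chr9:50603877-50603906, minus strand: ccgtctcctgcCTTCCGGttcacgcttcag
Cox6a1, NRF1, chr5:115349056-115349085, minus strand: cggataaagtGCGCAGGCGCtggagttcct
Atp5g2, NRF1, chr15:102671070-102671099, minus strand: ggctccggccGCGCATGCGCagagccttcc
Members with the NRF1 motif had a median logFC of -0.47 for KA vs SH in neurons and those without it -0.53, and in glia both medians were -0.43. With and without the ETS motif the medians were -0.55 and -0.45 in neurons and -0.49 and -0.41 in glia, and with and without the YY1 motif -0.37 and -0.53 in neurons and -0.34 and -0.44 in glia.

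The comparison of KA with SH asked whether expression of the respiratory chain differed 24 h after the injection. In neurons, no member was called in either direction at the FDR of 0.25 that the study used (edgeR quasi-likelihood test, 4 group means, 37598 genes tested). Among all genes 0.279% were upregulated and 0.0612% downregulated. At an unadjusted p below 0.05, edgeR had 1 member with a lower level in KA, Sdhd, among 499 genes of all 37598. DESeq2 also called no member and had 4 at an unadjusted p below 0.05, among 601 genes, and edgeR 4 called none and had 3, among 616 genes. These fits held both cell types, while the paper treated neurons and glia separately. A separate edgeR fit of the neuronal libraries called none of 80 members and had 7 lower, among 1191 genes of 32012. With 4 group means the fitted logFC was negative for 79 of 81 members, with a median of -0.52, while the median over all genes was 0.00. All 36 members of complex I (median -0.52), all 4 of complex II (-0.38), all 8 of complex III (-0.43) and all 17 of complex V (-0.42) had negative estimates. Complex IV had 14 negative estimates of 16 (median -0.65), the others being Cox6b2 and Cox7b2.

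Most of this shift was found in replicate 1. Between the KA and SH neurons of replicate 1, 77 members were lower in KA, with a median log2 ratio of -0.98. In replicate 2, 43 members were lower and 38 higher, with a median of -0.02. In replicate 3, 65 were lower, with a median of -0.22. Over all genes 46.0%, 50.1% and 47.6% were lower in replicates 1, 2 and 3, with medians of 0.06, -0.001 and 0.01. The shift was therefore largest in 1 pair of libraries, and replicate 2 had members in both directions in similar number. Without SH neurons replicate 1 the median logFC was -0.18, and without all 4 libraries of replicate 1 it was -0.18, with 14 of 81 estimates positive and still no call. The medians over all genes in these fits were 0.02 and -0.04.

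**Figure D2:**
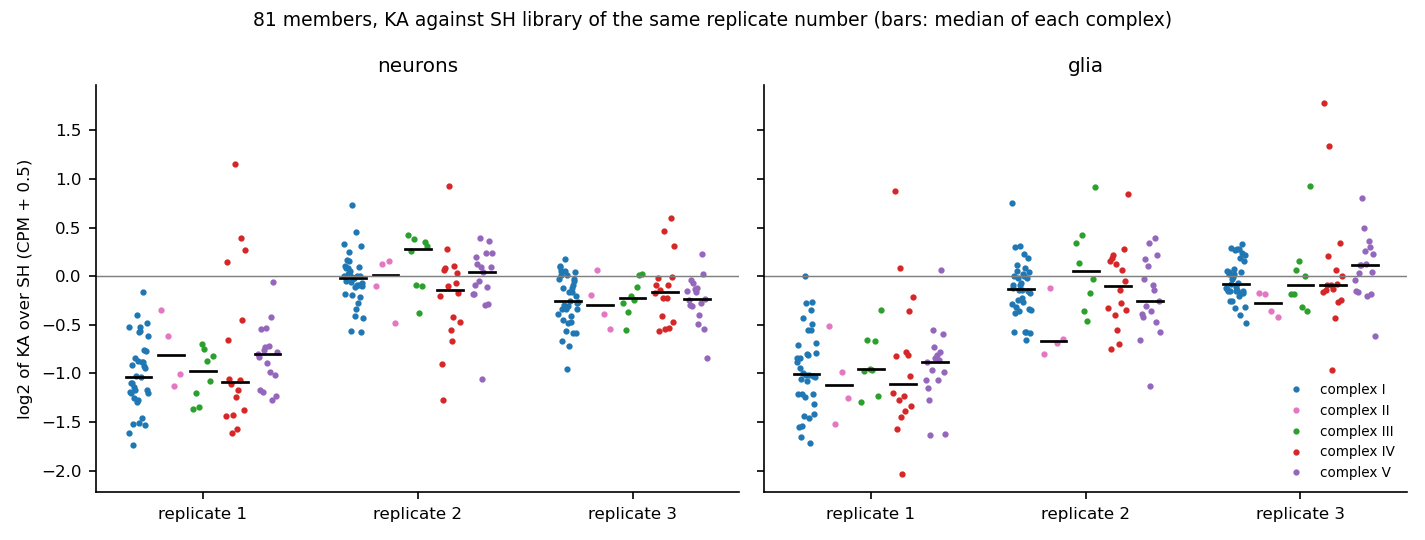
Log2 ratio of KA over SH (CPM plus 0.5) for each of the 81 members, between libraries with the same replicate number, in neurons (left) and glia (right); points are members coloured by complex, and bars are medians of each complex. The median over members is -0.98 and -0.97 in replicate 1 of neurons and glia and lies between -0.22 and -0.02 in replicates 2 and 3.

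Other features of the neuronal replicate 1 libraries moved with this shift, and their part in it was not tested. The mitochondrially encoded subunits summed to 658 CPM in SH neurons replicate 1 and to 146 to 232 CPM in the other 5 neuronal libraries. The cytosolic ribosomal protein genes summed to 1498 CPM there and to 827 to 1318 CPM in the others. In glia, in contrast, their sum was highest in KA replicate 3 (1492 CPM), with 955 CPM in SH replicate 1. Short members stood out more than long ones. The 27 members with the shortest exons lay 1.07 (log2, median) above their mean over the neuronal libraries in SH neurons replicate 1, the 26 of middle length 0.75 and the 28 longest 0.37. The median logFC for KA vs SH in neurons was -0.58 in the shortest members, -0.53 in those of middle length and -0.34 in the longest, while coding genes of the same length ranges had medians of 0.00, -0.07 and -0.06.

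A few members of neurons differed in all pools. In 10 members every KA library lay below every SH library, and in none did every KA library lie above. Over all genes tested this was so for 4.45% and 5.27%. The 10 were Ndufc1, Ndufs7, Ndufv2 and Ndufv3 of complex I, Sdhd, Uqcrc2, Cox6b1 and the ATP synthase genes Atp5a1, Atp5b and Atp5g3. Sdhd (ENSMUSG00000000171, chr9:50596357-50603812, mm10), a membrane anchor of succinate dehydrogenase that helps to bind ubiquinone, was at 82.4, 51.3 and 57.8 CPM in SH neurons and at 40.9, 36.5 and 39.5 CPM in KA neurons. Its KA libraries were close together and all lay below SH. The logFC was -0.71 ± 0.33 (SE, n = 3 pools per group), with an edgeR FDR of 1 and of 0.359 with the replicate block, and the FDR ranged from 0.359 to 1 over all alternatives. Atp5b was at 703, 604 and 686 CPM in SH neurons and at 396, 533 and 580 CPM in KA neurons. Its logFC was -0.40 ± 0.40, with an edgeR FDR of 1, so that the difference stayed within the spread of the fit although the libraries did not overlap.

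With the replicate number as a block, 1 member passed in neurons, lower in KA, against 1.94% of all genes upregulated and 1.11% downregulated. This was Cox6c (ENSMUSG00000014313, chr15:35925886-35938246, mm10), a small subunit of cytochrome c oxidase. It was at 182, 91.8 and 137 CPM in SH neurons and at 77, 62.5 and 94.2 CPM in KA neurons. KA was lower within every replicate number, but the groups overlapped. The logFC was -0.82 ± 0.39 with an edgeR FDR of 1, and -0.78 ± 0.26 with the block (FDR 0.227). Over all alternatives the FDR ranged from 0.227 to 1, and without replicate 1 the logFC was -0.57 (FDR 1). At an unadjusted p below 0.05 the edgeR block fit had 11 members lower in KA neurons, among 1283 genes of all 37598. This was a larger share of members than of all genes. It had 1 member higher, among 1708 genes.

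In glia, no member was called for KA vs SH either (edgeR, FDR below 0.25), while 0.442% of all genes were upregulated and 0.306% downregulated. At an unadjusted p below 0.05 edgeR had 3 members, Sdhd, Cox6b2 and Atp5s, all lower in KA, among 1012 genes of all 37598, so that their share was near that of all genes. DESeq2 called none and had 5, among 1280 genes, and edgeR 4 called none and had 2, among 1141 genes. A separate edgeR fit of the glial libraries called none of 80 members and had 0 lower, among 536 genes of 33509. With 4 group means the fitted logFC was negative for 76 of 81 members, with a median of -0.42, while the median over all genes was 0.14. The exceptions were Cox4i2, Cox6a2, Cox8c, Uqcrq and Atp5g1. Complex II had the lowest median (-0.65), complex IV had -0.56, complex I -0.39, complex III -0.36 and complex V -0.35.

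This shift again lay mainly in replicate 1. In glia replicate 1, 77 members were lower in KA, with a median log2 ratio of -0.97. In replicate 2, 53 members were lower (median -0.14), and in replicate 3, 45 were lower and 35 higher (median -0.08). Over all genes 45.1%, 46.0% and 41.0% were lower in replicates 1, 2 and 3, with medians of 0.09, 0.06 and 0.05. Without the low-input SH glia replicate 1, the median logFC was -0.03 and 36 members had positive estimates. The median over all genes was then 0.43, with 68.6% positive, against 0.14 with all libraries. Without both low-input libraries the median over members was -0.14 with 28 positive (all genes 0.01). Without replicate 1 it was -0.19 with 16 positive (all genes 0.06). Leaving out KA glia replicate 3 or SH glia replicate 2 moved the median over members to -0.69 and -0.64 (all genes 0.23 and 0.28). The size of the glial shift thus depended on single libraries, while the members' median lay below that of all genes in each of these fits.

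With the replicate block, 5 members passed in glia, all lower in KA, against 3.47% of all genes upregulated and 4.17% downregulated, so that the share of members called was near the background. At an unadjusted p below 0.05 the edgeR block fit had 15 members lower in KA, among 2399 genes of all 37598. This was a larger share of members than of all genes. It had 1 member higher, among 2462 genes. The 5 members called were Sdhd, Atp5s, Cox6b2, Ndufv1 and Cox6c, and their edgeR FDR with the block ran from 0.140 for Sdhd to 0.221 for Cox6c. Sdhd was at 59.4, 31.9 and 47.8 CPM in SH glia and at 24.6, 20.2 and 35.6 CPM in KA glia. KA was lower in each replicate number, and the groups overlapped in 1 library of each. Its logFC was -0.79 ± 0.33, with an edgeR FDR of 0.907. Atp5s was at 31.3, 10.2 and 30.6 CPM in SH glia and at 9.82, 6.69 and 19.9 CPM in KA glia (logFC -0.98 ± 0.46, edgeR FDR 1.00). The SH glia pools themselves spread over a range that covered 1 KA library. Ndufv1 was at 114, 101 and 163 CPM in SH glia and at 55.3, 67.1 and 131 CPM in KA glia, with a logFC of -0.58 ± 0.40 and an edgeR FDR of 1.00. Over all alternatives the FDR of these 5 members ranged from 0.140 to 1. Without replicate 1 their logFC values were -0.63 for Sdhd, -0.76 for Atp5s, -1.06 for Cox6b2, -0.53 for Ndufv1 and -0.43 for Cox6c, each with an FDR of 1.

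Marker lists of the glial cell types also had shifted estimates between SH and KA glia, and their part in the values above was not tested. Few single markers passed (edgeR, FDR below 0.25). Lower in KA were 2 microglial markers and 1 each of astrocytes, oligodendrocyte precursors and neurons. No oligodendrocyte, endothelial, pericyte or leukocyte marker was called, and none of any list was higher. The 8 oligodendrocyte markers summed to 14180 to 29620 CPM in SH glia and 7466 to 14060 CPM in KA glia, all 8 with a negative logFC (median -0.90). The 5 markers of oligodendrocyte precursors summed to 1446 to 2511 and 580 to 897 CPM (all 5 negative, median -1.44), the 10 microglial ones to 1156 to 2694 and 864 to 1807 CPM (all 10 negative, median -0.50), and the 10 astrocyte ones to 2024 to 2942 and 1259 to 2405 CPM (7 negative, median -0.83). The 10 neuronal markers were present in the glial libraries at 498 to 1478 CPM in SH and 331 to 1239 CPM in KA (9 negative, median -0.50). The 7 endothelial markers, at 12.9 to 44.9 CPM in SH and 21.9 to 61.0 CPM in KA, had a median of 0.71 (2 negative), and the blood leukocyte markers, at 72.8 to 82.2 and 81.6 to 118 CPM, a median of 0.81 over 6 tested (1 negative). The 5 pericyte markers, at 61.5 to 121 and 30.5 to 74.8 CPM, had a median of -0.37 (4 negative). None of the neuronal, astrocyte, microglial or oligodendrocyte lineage markers was at 0 over the glial libraries. The mitochondrially encoded subunits summed to 1199 CPM in SH glia replicate 1, 450 CPM in KA glia replicate 1 and 189 to 290 CPM in the other 4. In neurons the marker lists moved less, with a median logFC of -0.13 for the 10 neuronal markers and of -0.50 for the 8 oligodendrocyte markers, which summed to 319 to 1267 CPM in SH and 140 to 701 CPM in KA neurons.

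The core subunits, and Cox4i1 and Cox5a of complex IV, had negative KA estimates in both fractions, and none of them passed without the block. In neurons, Ndufs1 was at 114, 111 and 146 CPM in SH and 102, 104 and 130 CPM in KA (logFC -0.14 ± 0.35), and Sdha at 210, 211 and 272 CPM in SH and 165, 197 and 238 CPM in KA (-0.21 ± 0.37). The libraries of both genes overlapped. Cox4i1, the major isoform of the regulatory subunit IV, was at 187, 69.0 and 82.7 CPM in SH neurons and 68.8, 59.9 and 73.1 CPM in KA neurons (-0.75 ± 0.43). Its SH mean rested on replicate 1, and the other SH libraries lay within 10 CPM of the highest KA library. In glia, Cox4i1 was at 116, 41.4 and 61.4 CPM in SH and 50.5, 32.9 and 54.6 CPM in KA (-0.67 ± 0.43). Uqcrc1 was at 130, 132 and 149 CPM in SH glia and 66.8, 102 and 166 CPM in KA glia (-0.29 ± 0.38), with KA replicate 3 above all SH libraries. The edgeR FDR of these genes was 1 in neurons and 1.00 in glia. In glia every KA library lay below every SH library for Ndufv3 and Cox5a, against 3% of all genes, and for none did every KA library lie above, against 3.61%. Cox5a was at 23.2, 16.4 and 14.1 CPM in SH glia and 12.9, 9.52 and 12.8 CPM in KA glia (logFC -0.61 ± 0.37, edgeR FDR 1.00).

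**Figure D3:**
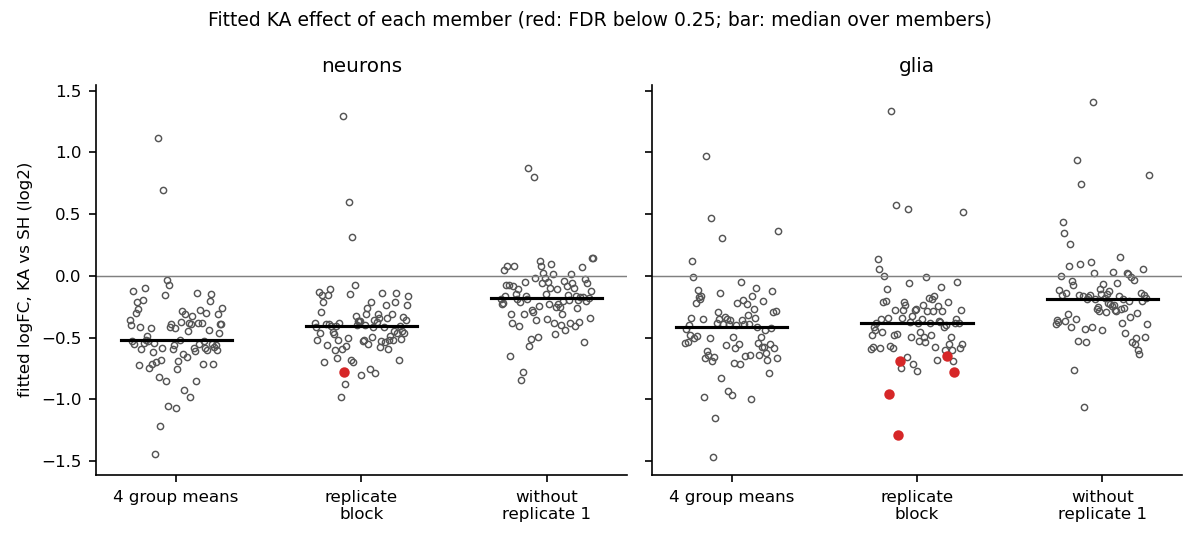
Fitted logFC of KA vs SH for each of the 81 members in neurons (left) and glia (right) from the 4 group means, with the replicate block and without the 4 libraries of replicate 1; red points have an FDR below 0.25 and bars are medians over members. The medians are -0.52, -0.41 and -0.18 in neurons and -0.42, -0.38 and -0.19 in glia, and red points occur only with the block (1 and 5 members).

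The difference between the KA effects in neurons and glia was called for no member and for no gene (edgeR, FDR below 0.25, 0% in each direction). With each pool as a block, 0.314% of all genes had a higher and 0.157% a lower effect in neurons, and again no member. At an unadjusted p below 0.05 edgeR, edgeR 4 and DESeq2 each had 1 member with a higher effect in neurons. The same held for 286, 326 and 345 genes of all 37598. None of the 3 had a member with a lower effect, and in edgeR the member was Cox6b2. No member was called by DESeq2 or edgeR 4. The median difference over members was -0.07, close to the -0.09 of all genes, and 51 members had the more negative estimate in neurons. The estimate was positive for 30 members and for 43.7% of all genes. Cox6b2 (ENSMUSG00000051811, chr7:4751792-4753094, mm10) encodes the isoform of subunit VIb best known from testis. It was at 0.303, 0.421 and 1.39 CPM in SH neurons and at 1.28, 1.25 and 2.11 CPM in KA neurons. In glia it was at 14.7, 3.89 and 8.19 CPM in SH and at 3.22, 2.49 and 3.95 CPM in KA. The estimate was positive in neurons (logFC 1.12 ± 0.67) and negative in glia (-1.47 ± 0.65), but the libraries overlapped in both fractions. The difference was 2.58 ± 0.94, with an edgeR FDR of 1, and of 0.487 with the block, the lowest over all alternatives. Without replicate 1 it was 1.93 (FDR 1.00).

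Neurons against glia gave the clearest pattern, with most members higher in neurons. Over KA and SH together, 27 members were higher in neurons and 1 was lower (edgeR, FDR below 0.05), against 11.6% and 6.91% of all genes. The estimate was positive for 74 of 81 members, with a median logFC of 0.65, while the median over all genes was -0.15. The 27 comprised 11 of 36 members of complex I, 0 of 4 of complex II, 3 of 8 of complex III, 4 of 16 of complex IV and 9 of 17 of complex V. Median logFC values were 0.64, 0.45, 0.80, 0.64 and 0.78 in this order. With each pool as a block, 60 members were higher, including all 27, and 1 was lower, against 19.7% and 9.84% of all genes. Within the 6 pools, 68 to 76 members were higher in neurons than in glia of the same mice, with median log2 ratios from 0.36 to 0.89. Over all genes the median ratio lay between -0.20 and 0.00 in pools 1 and 2 of both treatments, but was 0.23 in SH pool 3 and 0.22 in KA pool 3, where the members had 0.55 and 0.36. In all 6 pools the median of the members was above that of all genes.

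The number of calls, in contrast, depended on the libraries and the scaling. Without replicate 1, 0 members were called higher (edgeR; 3 at an unadjusted p below 0.05) against 3.74% of all genes, with 68 estimates positive and a median of 0.36. Without both low-input libraries 3 were called, against 5.25%. DESeq2 called 14 (10.7% of all genes) and edgeR with RLE scaling 7 (8.64%), all among the 27, and edgeR 4 called 27 (13.3%). At an FDR of 0.25, 51 members were higher, against 18.6% of all genes. RLE scaling moved the median over all genes from -0.15 to -0.30, and that over members from 0.65 to 0.49.

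The 3 members with the lowest p in neurons vs glia were Atp5g1, Ndufc1 and Cox6c. Atp5g1 (ENSMUSG00000006057, chr11:96068852-96075670, mm10) was at 44.8, 22.5 and 36.7 CPM in SH neurons, 26.8, 29.7 and 33.3 in KA neurons, 15.1, 9.35 and 8.88 in SH glia and 10.2, 10.1 and 15.9 in KA glia. Every neuronal library lay above every glial one. The logFC was 1.48 ± 0.25, with an edgeR FDR of 0.000342, ranging from 4.58e-06 to 0.0502 over all alternatives. Ndufc1 (ENSMUSG00000037152, chr3:51404677-51408988, mm10), an accessory subunit of the membrane arm of complex I, was at 15.5 ± 4.71 CPM in neurons and 5.41 ± 2.30 CPM in glia (SD, n = 6 libraries), with a logFC of 1.52 ± 0.28 and an edgeR FDR of 0.000796 (2.62e-05 to 0.0801 over all alternatives). Cox6c was at 108 ± 44.5 and 38.0 ± 15.5 CPM, with a logFC of 1.48 ± 0.28 and an edgeR FDR of 0.000899 (8.29e-07 to 0.182). Both also separated all 6 neuronal from all 6 glial libraries. Such separation was found for 10 members above and 1 below, against 7.60% and 4.68% of all genes.

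The core subunits, and Cox4i1 and Cox5a of complex IV, had positive estimates of differing precision. Ndufv1 was at 192 ± 48.6 CPM in neurons and 105 ± 40.2 in glia (logFC 0.89 ± 0.28, edgeR FDR 0.0343). Uqcrc1 was at 242 ± 49.9 and 124 ± 35.4 CPM (logFC 0.96 ± 0.27, edgeR FDR 0.0171). Both passed, as did Cox5a, a nuclear-encoded subunit next to the catalytic core of complex IV, at 27.4 ± 11.9 and 14.8 ± 4.68 CPM (logFC 0.88 ± 0.26, edgeR FDR 0.0263). Ndufv1 was past the threshold in 10 of 22 alternatives (FDR 0.000150 to 0.739), Uqcrc1 in 14 (9.84e-05 to 0.641) and Cox5a in 8 (0.00118 to 0.643). Ndufs1, the large iron-sulphur subunit of complex I, had a logFC of 0.48 ± 0.25 (edgeR FDR 0.256), and the Rieske protein gene Uqcrfs1 had 0.37 ± 0.23 (FDR 0.341). In complex II, Sdha had 0.40 ± 0.26 (edgeR FDR 0.398) and the iron-sulphur subunit Sdhb 0.58 ± 0.27 (FDR 0.167). Atp5a1 and Atp5b had 0.46 ± 0.25 and 0.78 ± 0.28 (edgeR FDR 0.282 and 0.0670), and Cox4i1 had 0.59 ± 0.31 (FDR 0.244). With the pool as a block these 7 genes were past the threshold as well, with FDR values from 0.00175 to 0.0470.

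Only 7 members had a negative estimate in neurons vs glia, and only Cox6b2 passed in this direction. It was at 1.12 ± 0.67 CPM in the 6 neuronal libraries and 6.08 ± 4.68 CPM in the 6 glial ones, which did not overlap (logFC -2.34 ± 0.48, edgeR FDR 0.00185, 4.01e-07 to 0.0484 over all alternatives that tested it). By the next lowest p, Cox6a2, the isoform of heart and skeletal muscle, had a logFC of -0.92 ± 0.69 (edgeR FDR 0.483) at no more than 1.82 CPM in any library. Ndufb11, an X-linked accessory subunit of complex I, had -0.27 ± 0.40 (FDR 0.745).

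For subunits with alternative isoforms, 1 isoform had most of the signal in both fractions. Per kilobase, Cox4i1 was at 58.1 CPM in neurons and 38.4 in glia, and Cox4i2, the isoform known from lung and from low oxygen, at 1.78 and 2.40. Cox6a1 was at 60.9 and 50.8 CPM per kb and Cox6a2 at 0.852 and 1.45. Cox7b was at 24.4 and 12.6 CPM per kb and Cox7b2 at 0.959 and 1.02, and Cox8a was at 57.1 and 35.1 and Cox8c at 1.42 and 1.71. Cox7a2 was at 20.8 and 13.2 CPM per kb, its muscle isoform Cox7a1 being under the count minimum. Cox6b1 was at 35.4 CPM per kb in neurons and 22.3 in glia, and Cox6b2 was at 1.01 and 5.48, so that the minor isoform was nearer to the major one in glia. Cox6b1 itself had a logFC of 0.67 ± 0.33 in neurons vs glia (edgeR FDR 0.214; 0.00646 with the block), the opposite sign to Cox6b2. As a share of the major isoform per kilobase, a ratio chosen after the values were seen, Cox6b2 was at 27.4%, 32.8% and 31.5% in SH glia and at 16.8%, 19.1% and 16.2% in KA glia. In this ratio the SH and KA libraries of glia did not overlap, and SH replicate 1 did not stand apart. With 3 pools against 3, an exact permutation test cannot fall below a p of 0.10, and none was run. In neurons the ratio was 0.398%, 1.24% and 3.89% in SH and 4.63%, 3.95% and 6.94% in KA, at levels of Cox6b2 near 1 CPM. The share of Cox4i2 in glia had the opposite direction, with 2.17%, 10.9% and 0.862% of Cox4i1 in SH and 10.8%, 15.6% and 7.71% in KA, and its libraries overlapped. In glia Cox7b2 was at 3.26% to 15.4% of Cox7b in SH and 1.89% to 19.3% in KA, and Cox8c at 0% to 4.65% of Cox8a in SH and 0% to 14.4% in KA. The share of Cox6a2 in Cox6a1 was at most 5.34% in any library. All of these minor isoforms except Cox6b2 were below 3 CPM in every library.

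The 3 c-ring genes differ in their import sequences. Atp5g3 had the highest level, at 64.3 CPM per kb in neurons and 27.5 in glia (logFC 1.20 ± 0.26, edgeR FDR 0.00255). Atp5g1 was at 6.58 and 2.36 CPM per kb, and Atp5g2 at 5.76 and 4.92. The annotated exon lengths behind these levels were 2181 bases for Atp5g3, 4912 for Atp5g1 and 1675 for Atp5g2. Atp5g2 had a logFC of 0.22 ± 0.29 (FDR 0.715; 0.505 with the block). Whether the 3 differed from each other in neurons vs glia was not tested, and part of the exon words of Atp5g1 and Atp5g2 occur elsewhere, as given above. In KA vs SH the 3 had estimates of -0.72 (Atp5g3), -0.21 (Atp5g1) and -0.26 (Atp5g2) in neurons, none past the threshold (edgeR FDR 1).

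**Figure D4:**
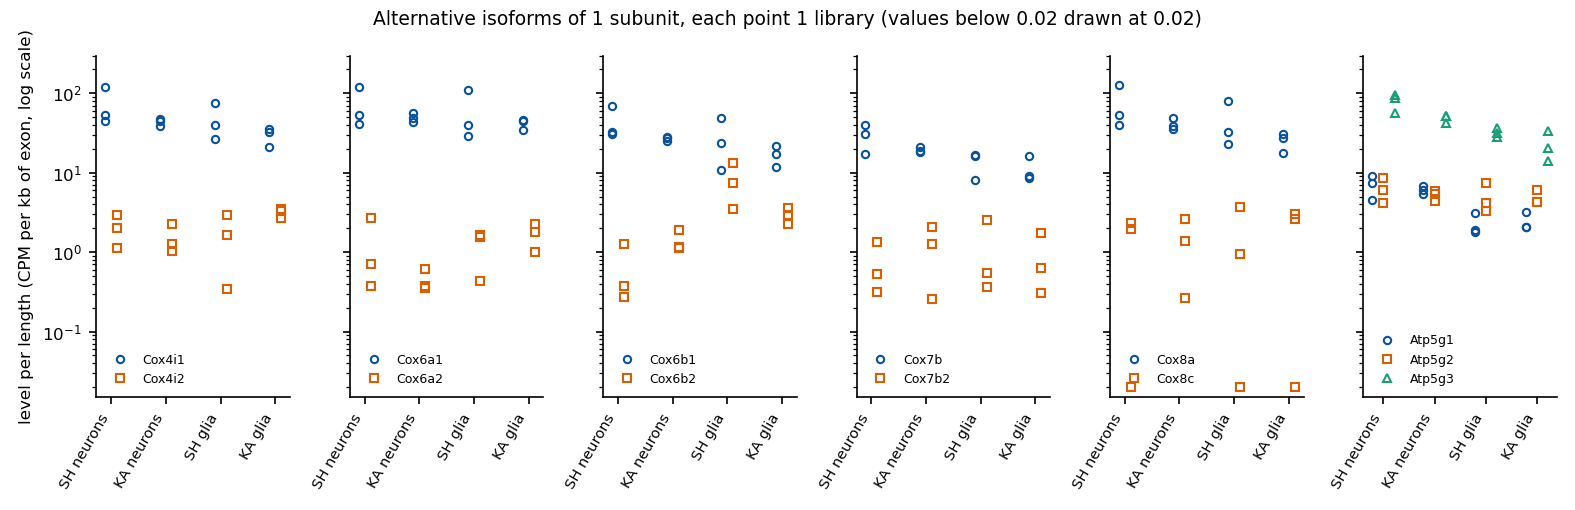
Level per length (CPM per kb of exon, log scale) of alternative isoforms of 1 subunit in the 4 groups; each point is 1 library, and values below 0.02 are drawn at 0.02. The first isoform of each Cox pair lies above the other in every library, Cox6b2 comes nearest to Cox6b1 in SH glia, and Atp5g3 lies above Atp5g1 and Atp5g2 in every library.

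Other genes of energy metabolism were followed as lists. Of 12 mitochondrially encoded subunits tested, none passed in KA vs SH in either fraction (edgeR, FDR below 0.25), with median logFC values of -0.66 in neurons and -0.68 in glia, and of -0.31 and -0.19 with the block. SH replicate 1 had the highest summed level in both fractions. In neurons vs glia all 12 estimates were negative (median -0.57), opposite to the nuclear-encoded members, and none passed without the block and 5 were lower with it. The libraries were made from nuclei, which do not hold the mitochondrial genome, so that these counts do not give its expression in each fraction. The source of these counts was not tested. The 44 assembly factors tested had no call for KA vs SH (median -0.28 in neurons and -0.18 in glia), and 13 were higher in neurons than in glia (25 with the block) and none lower. Of 17 genes of the tricarboxylic acid cycle, which supplies NADH and succinate, none passed for KA vs SH (median -0.21 and -0.23), 10 were higher in neurons and 1 lower. With the block 1 gene of the cycle was lower in KA glia. The gene lower in neurons was Suclg2, the GTP-forming subunit of succinyl-CoA ligase (logFC -1.47, edgeR FDR 0.00339), whereas Sucla2, the ATP-forming counterpart, was higher in neurons (1.05, edgeR FDR 0.00284). Of 9 subunits and electron carriers outside the symbols used, none passed for KA vs SH, and Cycs (cytochrome c), Cyc1 (cytochrome c1 of complex III) and Cox7a2l, a factor of supercomplex assembly, were higher in neurons than in glia (logFC 1.02, 0.88 and 0.83).

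Of 17 glycolytic genes, 2 were downregulated in KA glia, Aldoc with a logFC of -1.76 (edgeR FDR 0.245), itself an astrocyte marker, and Ldhb, a lactate dehydrogenase subunit, with -1.31 (FDR 0.132), and none passed in neurons. With the block 2 rose and 2 fell in KA neurons, and 1 rose and 3 fell in KA glia. In neurons vs glia 9 were higher and 2 lower, the latter Aldoc and the hexokinase Hk2. The 51 cytosolic ribosomal protein genes had no call for KA vs SH, and their median logFC was -0.09 in neurons and 0.48 in glia, where 49 estimates were positive, so that in glia they did not share the sign of the respiratory chain genes, and 5 were upregulated with the block. The 13 regulators of mitochondrial biogenesis had medians near 0 (-0.01 in neurons and -0.04 in glia) and no call, and with the block 1 rose and 1 fell in KA glia.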

How the data were processed

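mRNAseq of 12 libraries was analysed, and the 12 RRBS (DNA methylation) samples were not used here. The authors trimmed reads with Trim Galore 0.4.3, aligned them to mm10 with Rsubread, counted them per GENCODE M16 gene with featureCounts without strand and deposited the raw counts. Libraries came from single-end and paired-end runs, and which came from which is not given in the sources used here. Symbols, coordinates and exon lengths were taken from GENCODE M21 (mm10), and 105 genes had no symbol. Groups followed the labels, and the table held 0 columns of other samples.

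Genes were filtered with filterByExpr (minimum count 10, minimum total 15), TMM-scaled and fitted with 4 group means in edgeR 4.0.16 (R 4.3.3; quasi-likelihood test in its legacy form, Benjamini-Hochberg adjustment), with FDR thresholds of 0.25 for KA effects and 0.05 for neurons vs glia. The script was tested on simulated data. Log2 ratios of single libraries used a pseudocount of 0.5 CPM. Replicates were pools of mice, so that p-values measure the spread between 3 pools per treatment. Libraries with the same replicate number deviated from their group means together (r = 0.399, 0.264 and 0.551 in neurons and 0.457, 0.543 and 0.764 in glia). Between KA and SH libraries of different number, r ran from -0.502 to 0.142 in neurons and from -0.671 to 0.349 in glia. KA and SH pools held different mice, so that the replicate block was chosen from these same data. The fractions of a pool came from the same mice. A fit with the replicate number (KA vs SH) or the pool (neurons vs glia and the difference) as a block is therefore given where it changed a call. DESeq2 1.42.0, edgeR 4 (the newer quasi-likelihood form), RLE scaling, other filters, separate fits and libraries left out served as alternatives.

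The members and the gene lists were chosen with earlier results of these data known. Named with values were members past a KA threshold with or without the block, core subunits (for complex IV, Cox4i1 and Cox5a in their place) and isoform sets. Also named were the 3 lowest p in each direction of neurons vs glia and the highest and lowest level per complex. Members listed because all libraries of a group separated, list genes, and Uqcrq were named after their values were seen. Promoter sequences were those of RefSeq (GRCm38.p6).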

Additional observations from a re-analysis of the deposited data

How the results depend on the processing

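The counts for KA vs SH were 0 under every alternative in neurons and glia except those named here, and the difference between cell types stayed at 0 members throughout. With the replicate block, 1 member was lower in KA neurons and 5 were lower in KA glia, and with at least 10 counts required in every library 1 was lower in KA glia (Sdhd). The block changed no other call in KA vs SH, and in neurons vs glia (27 members higher without it) it gave 60 higher. In that comparison RLE scaling gave 7, no low-count filter 5, at least 10 counts in every library 17, DESeq2 14, an FDR threshold of 0.25 51, leaving out both low-input libraries 3 and leaving out the 4 libraries of replicate 1 (added after the data were seen) 0. Leaving out single libraries gave 3 (without KA glia replicate 1 or 2) to 36 (without KA glia replicate 3), with 6 without SH glia replicate 1, 12 without SH glia replicate 2, SH neurons replicate 1 or KA neurons replicate 3, 16 without SH neurons replicate 3 and 17 without SH glia replicate 3 or KA neurons replicate 1 or 2. Cox6b2 was lower under every alternative that tested it, and with 10 counts required in every library it was not tested, which left 0. Leaving out the 4 libraries of replicate 3 gave 22 members higher in neurons, and leaving out SH neurons replicate 2 gave 30. Settings with fewer libraries have fewer degrees of freedom, and the cause of these changes was not tested. The median logFC over members remained negative in KA vs SH under all alternatives (-0.68 to -0.18 in neurons, -0.69 to -0.03 in glia) and positive in neurons vs glia (0.36 to 0.78), while that of the difference took both signs (-0.45 to 0.22). It was positive without SH neurons replicate 1 (0.22), SH glia replicate 2 (0.19), KA glia replicate 3 (0.19), the 4 libraries of replicate 3 (0.07) or the 4 libraries of replicate 1 (0.00). With autosomal genes alone, also added after the data were seen, 23 of 78 members were higher in neurons and no KA count changed. Low counts limited Cox6a2, Cox7b2, Cox8c and Cox4i2, which were below 3 CPM in every library.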
